A study of Mus musculus with 12 samples.

Results

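The collagen genes of the mouse were followed in primary mammary organoids exposed to rising doses of the GSK3 inhibitor CHIR99021. Members were the rows of the deposited count table whose gene symbol has the form Col, a type number, the letter a and a chain number, which gave 44 genes of 25210 in the table. They were sorted by the kind of structure their protein forms: 11 fibrillar, 6 basement-membrane network (type IV), 6 beaded-filament (type VI), 9 fibril-associated, 4 transmembrane, 3 short-chain network, 2 multiplexin, 1 anchoring-fibril and 2 other genes. Organoids were grown from the mammary glands of female virgin FVB/N mice aged 8 to 11 weeks, embedded in growth-factor-reduced Matrigel in minimal medium, and harvested after 7 days with the vehicle dimethyl sulfoxide (DMSO) or with CHIR99021 at 1, 1.5 or 3 µM. No transgene or deletion is named in the labels, and all 4 groups share strain, matrix and day. The 3 independent cultures, called cultures 1, 2 and 3 by their replicate numbers, derive from 3 different mice, and a part of each went to every treatment. The sample titles also tag them med (culture 1), min (culture 2) and max (culture 3), and what these tags stand for is not given in the sources used here. This gave 12 libraries, 3 in each group.

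Collagens are proteins of the extracellular matrix built from 3 chains wound into a triple helix. Fibrillar collagens such as types I and III assemble into the fibres of connective tissue and are made mainly by fibroblasts. Type IV collagen forms the sheet-like network of basement membranes, which in the mammary gland lies under the myoepithelial layer of each duct. Type XVII collagen, encoded by Col17a1, is not secreted as a fibre: it spans the plasma membrane of basal epithelial cells in hemidesmosomes, the junctions that tie these cells to the basement membrane, and type VII collagen forms the anchoring fibrils beneath them. CHIR99021 blocks GSK3, which stabilises β-catenin and so turns on genes through the TCF/LEF factors. Matrigel is itself a basement-membrane extract, and the counts describe only mRNA made by the cultured cells.

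Upstream sequences are shown for Col17a1, which was called higher at 3 µM with and without the culture block described with the tests, for a multiplexin gene that fell (Col15a1) and for a neighbouring pair that fell to different extents (Col4a5 and Col4a6). They are the bases before the transcription start in RefSeq (GRCm38.p6), at most 250, 5′ to 3′ on the gene's strand, and shortened where the other annotation used (GENCODE M21) places an exon. Capitals mark a word that TCF/LEF factors can bind.
Col17a1 (chr19:47692095-47692292, minus strand): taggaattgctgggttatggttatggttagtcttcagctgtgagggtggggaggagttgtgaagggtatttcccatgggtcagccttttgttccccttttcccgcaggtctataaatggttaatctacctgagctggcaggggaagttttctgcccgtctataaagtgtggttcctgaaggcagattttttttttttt
Col15a1 (chr4:47207762-47208011, plus strand): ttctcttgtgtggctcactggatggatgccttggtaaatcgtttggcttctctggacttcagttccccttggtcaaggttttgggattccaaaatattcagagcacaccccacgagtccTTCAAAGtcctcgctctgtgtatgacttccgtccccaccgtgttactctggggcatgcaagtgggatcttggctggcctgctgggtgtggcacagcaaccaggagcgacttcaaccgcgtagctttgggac
Col4a5 (chrX:141475169-141475384, plus strand): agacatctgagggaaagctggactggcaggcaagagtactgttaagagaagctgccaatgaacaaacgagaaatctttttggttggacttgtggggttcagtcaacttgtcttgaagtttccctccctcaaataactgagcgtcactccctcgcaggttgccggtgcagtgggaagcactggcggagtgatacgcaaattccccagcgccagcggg
Col4a6 (chrX:141474077-141474326, minus strand): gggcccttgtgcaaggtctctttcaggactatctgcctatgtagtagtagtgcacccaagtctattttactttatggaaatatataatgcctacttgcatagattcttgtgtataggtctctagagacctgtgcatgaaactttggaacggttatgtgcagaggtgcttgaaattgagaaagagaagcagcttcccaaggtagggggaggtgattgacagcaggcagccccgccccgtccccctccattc
The words searched, on both strands, begin with CTTTG and end in any pair of A and T, and the capitals in Col15a1 read CTTTGAA on the other strand. Of the 44 genes, 35 had a RefSeq window, 38 windows in all, and 7 windows (18.4%) held a word, in Col6a2, Col9a1, Col9a2, Col13a1, Col15a1, Col20a1 and Col28a1. The share over all 32851 RefSeq windows of that length was 14.8%. A match describes letters only and is not a measured binding site.

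Libraries held 10129264 to 24485855 counts. The epithelial keratin Krt8 was present at 446 to 1096 CPM (counts scaled to a common library total, with TMM factors) and the epithelial adhesion gene Epcam at 380.0 to 759.7 CPM in the 12 libraries. Libraries of the same culture deviated from their group means together, so each test is also given with the culture as a block where that changes the call. Of the 44 genes, 38 passed the filter on low counts. Col4a3, Col6a4, Col6a6, Col19a1, Col22a1 and Col26a1 did not, with between 0 and 1.94 CPM in each library, and were not tested. A gene was called when its adjusted p was below 0.05 in edgeR's quasi-likelihood test, Benjamini-Hochberg adjusted over all 15316 genes tested.

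Collagen mRNA made up a smaller part of the libraries as the dose rose. In DMSO the 44 genes took 0.871, 1.88 and 3.04% of all counts in cultures 1, 2 and 3. At 1 µM the shares were 0.709, 1.64 and 2.995%, at 1.5 µM 0.361, 0.699 and 1.896%, and at 3 µM 0.187, 0.291 and 0.761%. Each culture had its lowest share at 3 µM, while culture 3 with 3 µM stayed close to culture 1 with DMSO, so the groups were separate only narrowly and the differences between cultures were large.

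At 1 µM, 0 of 38 collagen genes were called by edgeR, where 0.0522% of all genes were lower and 0.189% higher, and 0 in every fit that left out a library or a culture. There 1 had an unadjusted p below 0.05 (Col28a1), DESeq2 called 1, and edgeR with the culture as a block called 2, Col15a1 and Col28a1, both lower, against 3.06% of all genes lower and 2.55% higher. At 1.5 µM, 7 of 38 fell and 0 rose (0 higher also at an unadjusted p below 0.05 and in DESeq2), where 11.8% of all genes fell and 15.4% rose. With the culture as a block, 26 fell and 1 rose, against 24.3% and 22.3% of all genes. At 3 µM, 17 of 38 fell and 1 rose, where 27.7% of all genes fell and 29.9% rose. With the block, 28 fell and 2 rose, against 34.8% and 34.1% of all genes. The median log2 fold change of the 38 was -0.14 at 1 µM, -0.90 at 1.5 µM and -2.31 at 3 µM, beside 0, 0 and -0.03 for all genes tested.

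In fits without the block, the count at 1.5 µM depended on single libraries. It was 2 without DMSO culture 2 or without 1.5 µM culture 1, 11 without 3 µM culture 3, and 1 without culture 2 in every group. At 3 µM leaving out culture 2 in every group gave 12 in either direction.

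Followed within each culture, 28 of the 38 genes were lower at 3 µM than in DMSO in all 3 cultures, 3 were higher in all 3 (Col17a1, Col24a1 and Col4a4) and 7 were mixed. Among all genes, 39% were lower and 37.5% higher in all 3 cultures. The libraries of the 3 µM and DMSO groups did not overlap for 18 collagen genes that were lower and 1 that was higher, where 29.9% and 30.9% of all genes were so separated.

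**Figure D1:**
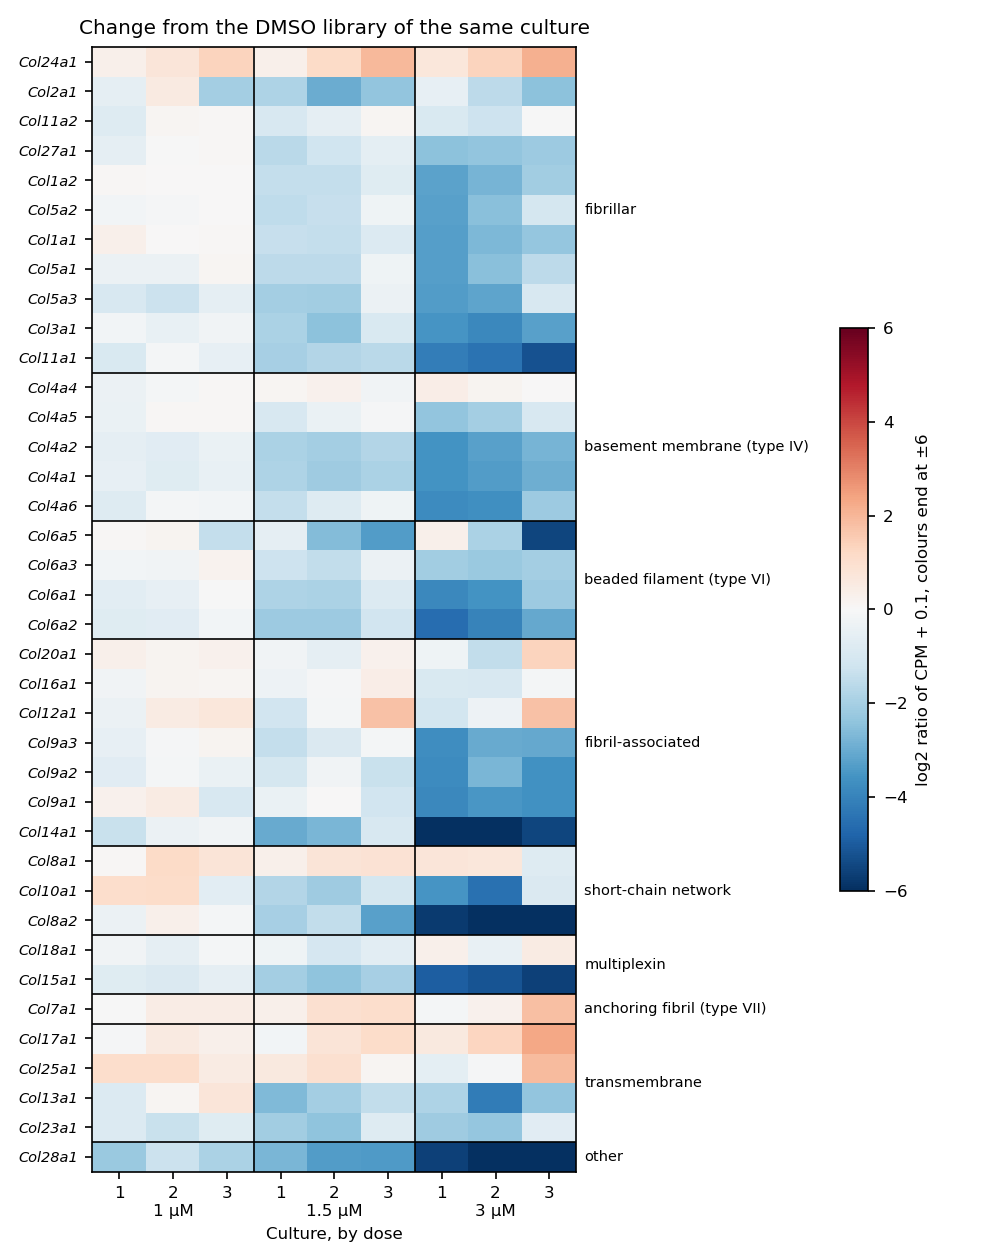
Log2 ratio of CPM (plus 0.1) of each of the 38 collagen genes tested, in each library with CHIR99021 against the DMSO library of the same culture; rows are grouped by class, columns are cultures 1 to 3 at 1, 1.5 and 3 µM, blue is lower and red higher. Blue deepens from left to right in most rows, with 28 of 38 rows blue in all 3 cultures at 3 µM, and Col17a1 and Col24a1 are red there.

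The type IV genes consisted of 4 members at substantial levels, which all fell at 3 µM, and a pair present in traces. Of 5 tested, 4 fell and 0 rose, where 27.7% of all genes fell and 29.9% rose. Col4a1 and Col4a2 encode the chains of the basement-membrane network found in nearly all tissues. They lie head to head on chromosome 8 (chr8:11198423-11312826 and chr8:11312805-11449287, GRCm38). Their first exons overlap by 22 bases on opposite strands, where the counts of both genes could be affected if strand was not used.

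Col4a1 stood at 914, 2289 and 1566 CPM in DMSO, in the order of cultures 1, 2 and 3. At 1 µM it stood at 642, 1388 and 1152 CPM, at 1.5 µM at 257, 522 and 424 CPM, and at 3 µM at 75.1, 224 and 209 CPM. Every culture was lower at each step, and no library at 1.5 or 3 µM reached the lowest DMSO library. The fitted log2 difference was -1.99 ± 0.49 (SE, n = 3; edgeR adjusted p = 0.0147) at 1.5 µM and -3.23 ± 0.52 (SE, n = 3; edgeR adjusted p = 0.000483) at 3 µM, 9.397-fold lower. At 1.5 µM the call was lost without DMSO culture 2 (adjusted p = 0.0559) and without 1.5 µM culture 1 (0.0608), and when culture 2 (0.154) or culture 3 (0.0773) was left out of every group, while the fit with the block gave 3.95e-05.

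Col4a2 followed the same course. It stood at 488, 1176 and 846 CPM in DMSO, at 335, 730.3 and 648 CPM at 1 µM, at 133, 282 and 254 CPM at 1.5 µM and at 41.1, 121 and 122 CPM at 3 µM. The 3 µM libraries all lay below the DMSO libraries. On the log2 scale the difference at 3 µM was -3.14 ± 0.52 (SE, n = 3; edgeR adjusted p = 0.000627), 8.82-fold lower.

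Col4a5 and Col4a6 encode chains that assemble together in the basement membranes of smooth muscle and of some epithelia. They too lie head to head, on the X chromosome (chrX:141475385-141689234 and chrX:141165403-141474076), with RefSeq starts 1343 bases apart. Col4a5 stood at 291, 205 and 185 CPM in DMSO, 223, 218 and 196 at 1 µM, 148, 153 and 177 at 1.5 µM and 57.2, 49.95 and 96.3 at 3 µM. The DMSO and 1 µM libraries overlapped, and from 1.5 µM on all 3 cultures were below every DMSO library. Its fitted log2 difference at 3 µM was -1.74 ± 0.24 (SE, n = 3; edgeR adjusted p = 0.000216), 3.35-fold lower.

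Col4a6 stood at 212, 140.2 and 151 CPM in DMSO, 125, 130.01 and 134 at 1 µM, 78.8, 81.2 and 127 at 1.5 µM and 15.4, 10.9 and 33.7 at 3 µM. The 3 µM libraries were well below all others, with culture 3 the highest of them. Its log2 fold change was -3.07 ± 0.39 (SE, n = 3; edgeR adjusted p = 0.000116), 8.38-fold lower, and between 1.5 and 3 µM alone it was -2.26 ± 0.38 (SE, n = 3; edgeR adjusted p = 0.00231). The call for that step was lost when culture 2 was left out of every group (0.0675, without the block). With the block on all libraries it had an edgeR adjusted p of 0.000612.

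Col4a3 and Col4a4, whose chains are best known from the kidney glomerulus, were present only in traces. Col4a4 stood at 0.799, 0.913 and 0.807 CPM in DMSO, 0.609, 0.828 and 0.852 at 1 µM, 0.891, 1.11 and 0.695 at 1.5 µM and 1.097, 1.03 and 0.828 at 3 µM, and its difference did not pass the test (0.23 ± 0.29 SE, n = 3; edgeR adjusted p = 0.511). Col4a3 stood at 0.133, 0.203 and 0.269 CPM in DMSO, 0.203, 0.3895 and 0.284 at 1 µM, 0.254, 0.0384 and 0.174 at 1.5 µM and 0.0783, 0.0641 and 0.276 at 3 µM and was not tested.

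**Figure D2:**
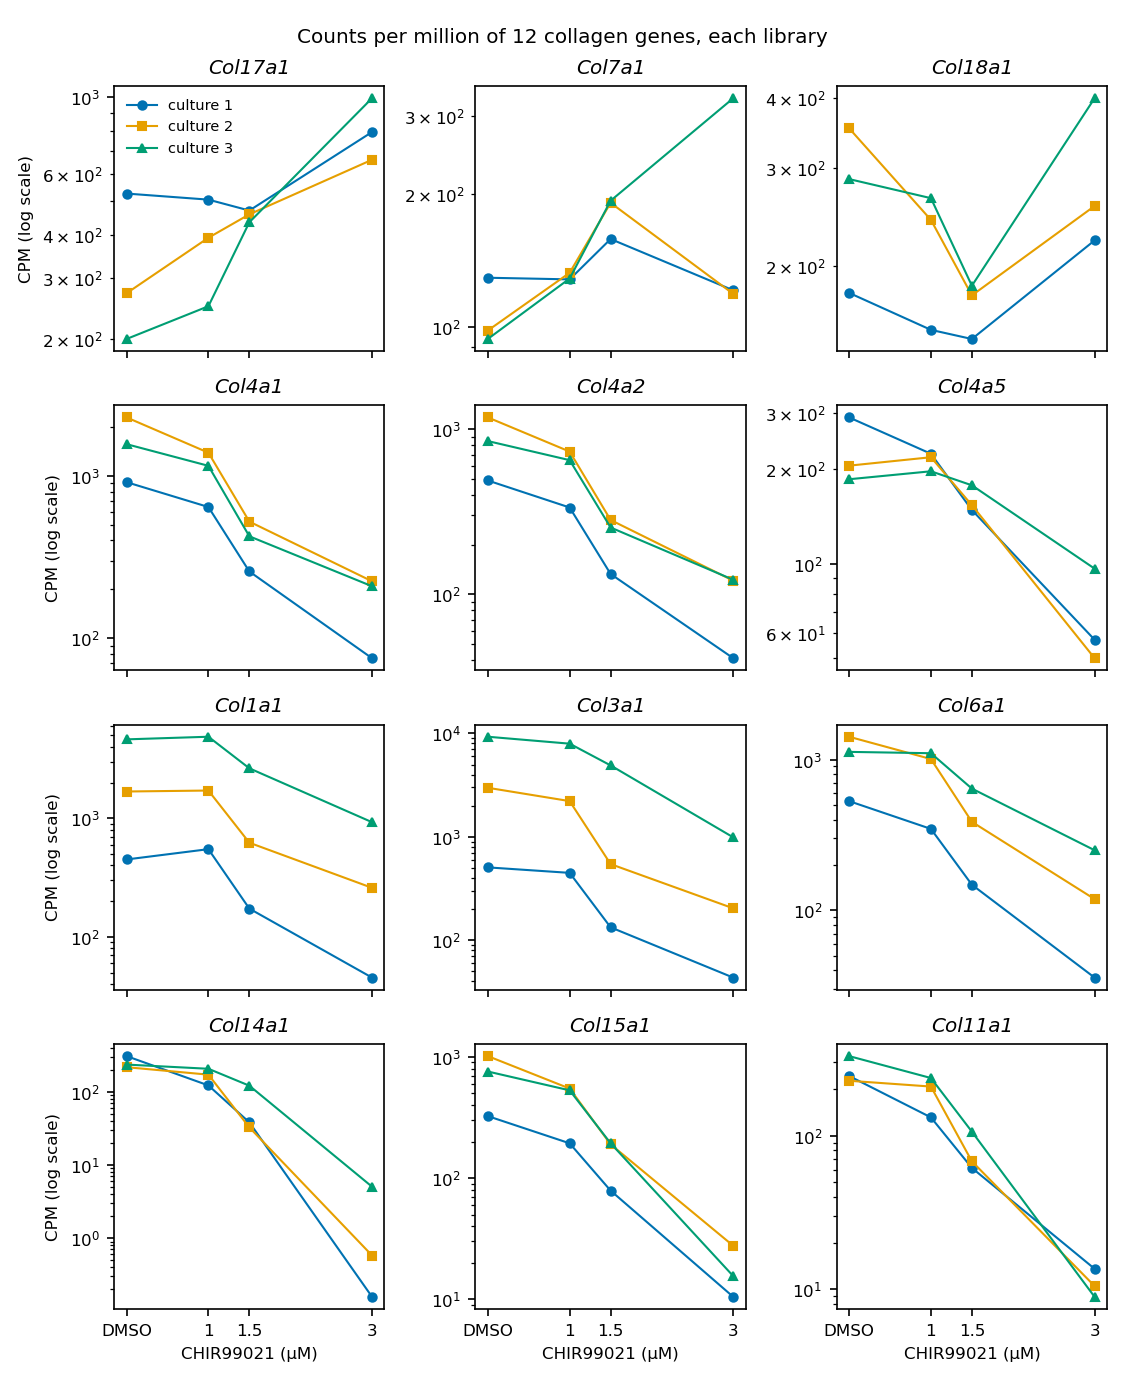
CPM (log scale, a separate range for each gene) of 12 collagen genes against the dose of CHIR99021, with 1 point per library and 1 line per culture. Col17a1 ends above its DMSO level in all 3 cultures, Col7a1 does so clearly only in culture 3, Col18a1 is lowest at 1.5 µM, and the other 9 genes end below the DMSO library of the same culture.

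Col17a1 was the only collagen gene called higher at 3 µM by edgeR without the block. It stood at 526, 271 and 199.8 CPM in DMSO, 505, 392 and 248 at 1 µM, 469.97, 458 and 435 at 1.5 µM and 793, 659 and 994 at 3 µM. All 3 µM libraries were above all DMSO libraries, whereas the 1 and 1.5 µM libraries overlapped with DMSO. In DMSO culture 1 was highest and culture 3 lowest, and at 3 µM culture 3 was highest. The log2 fold change was 1.29 ± 0.35 (SE, n = 3; edgeR adjusted p = 0.00984) at 3 µM, 2.45-fold higher, and it was 0.45 ± 0.35 (SE, n = 3; edgeR adjusted p = 0.359) at 1.5 µM. The slope on dose was 0.44 ± 0.10 log2 units per µM (SE; edgeR adjusted p = 0.00293). The call at 3 µM was lost when culture 2 (adjusted p = 0.114) or culture 3 (0.0549) was left out of every group. Both fits were without the block, which on all libraries gave an edgeR adjusted p of 0.00287.

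The other transmembrane collagens did not share this course. Col25a1, best known from motor neurons and amyloid plaques, stood at 22.1, 16.7 and 22.6 CPM in DMSO, 45.7, 34.9 and 31.5 at 1 µM, 33.5, 33.2 and 24.7 at 1.5 µM and 14.6, 15.7 and 83.7 at 3 µM, a log2 fold change of 0.89 ± 0.57 (SE, n = 3; edgeR adjusted p = 0.204). All 1 and 1.5 µM libraries were above the highest DMSO library. The 3 µM value rests on culture 3, since it was -0.46 without that 3 µM library. Col23a1 stood at 7.99, 29.9 and 47.3 CPM in DMSO and 1.72, 5.96 and 29.9 at 3 µM, a log2 fold change of -1.18 ± 1.18 (SE, n = 3; edgeR adjusted p = 0.413, and 0.00255 with the culture as a block). Col13a1, a component of neuromuscular junctions, was below 10 CPM in every library and differed by -2.86 ± 1.67 (SE, n = 3; edgeR adjusted p = 0.165, and 0.00162 with the culture as a block). Col23a1 and Col13a1 were lower than DMSO in all 3 cultures at 3 µM.

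Col7a1, the anchoring-fibril collagen (chr9:108953586-108984875), stood at 129, 98.1 and 93.9 CPM in DMSO, 128, 133 and 129 at 1 µM, 158, 191 and 193 at 1.5 µM and 121, 119 and 329 at 3 µM. At 1.5 µM all 3 libraries were above all DMSO libraries, and at 3 µM only culture 3 was. The fitted log2 difference at 3 µM was 0.82 ± 0.34 (SE, n = 3; edgeR adjusted p = 0.0611, and 0.0356 in DESeq2). The slope on dose passed the test (0.28 per µM, edgeR adjusted p = 0.044), but not with the block (0.0716) and not without 3 µM culture 3 (0.445).

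The pair of multiplexins, basement-membrane proteoglycans whose C-terminal fragments include endostatin, diverged. Col15a1 stood at 325, 1016 and 758 CPM in DMSO, 194, 548 and 529 at 1 µM, 78.8, 189.7 and 194 at 1.5 µM and 10.4, 27.5 and 15.4 at 3 µM. It was lower at every step in every culture. Its fitted log2 difference was -2.18 ± 0.57 (SE, n = 3; edgeR adjusted p = 0.0185) at 1.5 µM and -5.29 ± 0.66 (SE, n = 3; edgeR adjusted p = 0.000104) at 3 µM, 39.2-fold lower, and with the block it was already called at 1 µM (-0.72, adjusted p = 0.0373). The call at 1.5 µM was lost without DMSO culture 2 (0.0675) and without 1.5 µM culture 1 (0.068), and when culture 2 (0.185) or culture 3 (0.0765) was left out of every group. Those fits had no block, and with the block on all libraries the edgeR adjusted p was 4.43e-05.

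Col18a1 stood at 179, 354 and 287 CPM in DMSO, 154, 242 and 265 at 1 µM, 148, 177 and 185 at 1.5 µM and 223, 257 and 401 at 3 µM. In every culture the 1.5 µM library was the lowest of the 4. Against DMSO the log2 fold change was -0.68 ± 0.30 (SE, n = 3; edgeR adjusted p = 0.113, and 0.0135 with the culture as a block) at 1.5 µM and 0.10 ± 0.30 (SE, n = 3; edgeR adjusted p = 0.781) at 3 µM. Between 1.5 and 3 µM it was 0.79 ± 0.30 (SE, n = 3; edgeR adjusted p = 0.0705, and 0.00683 with the culture as a block). The sign at 3 µM turned to -0.21 without 3 µM culture 3 and to -0.08 when libraries were scaled by total counts alone.

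Fibrillar collagens differed widely between cultures. Of 11 tested at 3 µM, 2 fell and 0 rose without the block, a share of calls no higher than that of all genes (27.7% lower). With the block 9 fell and 1 rose, against 34.8% and 34.1% of all genes. Their median log2 fold change was -2.04, beside -0.03 for all genes. Culture 3 had the highest levels of the type I and III genes at every dose and culture 1 the lowest.

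Col1a1 and Col1a2 encode the chains of type I collagen, the main fibre of connective tissue. Col1a1 stood at 449, 1680.4 and 4623 CPM in DMSO, 549, 1712 and 4865 at 1 µM, 173, 622 and 2636 at 1.5 µM and 45.3, 259 and 925 at 3 µM. Every culture was slightly higher at 1 µM and lower at both higher doses, but 3 µM culture 3 was above DMSO culture 1. On the log2 scale the difference at 3 µM was -2.46 ± 1.33 (SE, n = 3; edgeR adjusted p = 0.137, and 8.7e-06 with the culture as a block). Col1a2 stood at 479, 1963 and 4828 CPM in DMSO, 507, 1967 and 4919 at 1 µM, 176, 727 and 2889.8 at 1.5 µM and 51.00, 286 and 1135 at 3 µM, a difference at 3 µM of -2.30 ± 1.34 (SE, n = 3; edgeR adjusted p = 0.163, and 1.12e-05 with the culture as a block).

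Col3a1, the type III chain that mixes with type I in soft tissue, spanned the widest range of the fibrillar genes. It stood at 506, 2979.6 and 9284 CPM in DMSO, 448, 2214 and 7955 at 1 µM, 133, 545 and 4902 at 1.5 µM and 43.4, 203 and 985 at 3 µM. The decline at 3 µM was similar in the 3 cultures, with log2 ratios to the DMSO library of the same culture of -3.54, -3.87 and -3.24, although the levels they started from spanned a wide range. The log2 fold change was -3.37 ± 1.67 (SE, n = 3; edgeR adjusted p = 0.107, and 7.59e-06 with the culture as a block).

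Col11a1, a chain of the minor fibrillar type XI, behaved alike in the 3 cultures. It stood at 245, 228 and 330.4 CPM in DMSO, 131, 209 and 238 at 1 µM, 61.5, 67.9 and 106 at 1.5 µM and 13.5, 10.4 and 8.83 at 3 µM. From 1.5 µM on, all libraries were below all DMSO libraries. Its log2 fold change was -1.77 ± 0.28 (SE, n = 3; edgeR adjusted p = 0.00183) at 1.5 µM and -4.62 ± 0.32 (SE, n = 3; edgeR adjusted p = 3.77e-06) at 3 µM, 24.6-fold lower. The call at 1.5 µM was lost when culture 2 was left out of every group (0.0822, without the block). With the block on all libraries the edgeR adjusted p was 0.000486.

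Col27a1, a fibrillar collagen of cartilage, stood at 11.4, 28.6 and 41.1 CPM in DMSO, 7.71, 28.5 and 42.6 at 1 µM, 3.69, 12.4 and 27.04 at 1.5 µM and 1.96, 5.45 and 8.896 at 3 µM. The 3 µM libraries were all below the lowest DMSO library. Its fitted log2 difference was -2.31 ± 0.86 (SE, n = 3; edgeR adjusted p = 0.0407, and 7.93e-06 with the culture as a block). Without the block this call was lost in 6 of the 12 fits that left out 1 library (highest adjusted p = 0.116).

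The type V chains, which set fibre diameter, gave log2 fold changes at 3 µM of -1.997 for Col5a1, -1.66 for Col5a2 and -2.01 for Col5a3. None was called without the block (edgeR adjusted p = 0.127, 0.189 and 0.084), and each was with it (0.000118, 0.000707 and 0.00097). Leaving out 3 µM culture 3 gave -3.211, -3.072 and -3.269, each then called without the block (0.0447, 0.0409 and 0.0194). Within cultures these declines were smallest in culture 3, where Col5a2 had a log2 ratio of -1.06 at 3 µM against -3.25 in culture 1. Col2a1, the cartilage fibre, was below 2 CPM in every library and differed by -2.04 ± 1.08 (SE, n = 3; edgeR adjusted p = 0.129, and 0.0258 with the culture as a block). Col11a2, at most 6.57 CPM, differed by -0.72 ± 0.33 (SE, n = 3; edgeR adjusted p = 0.0855).

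Col24a1, a fibrillar collagen expressed in bone, ran against its class. It stood at 1.33, 4.57 and 3.98 CPM in DMSO, 1.67, 7.64 and 10.1 at 1 µM, 1.65, 10.1 and 15.8 at 1.5 µM and 2.19, 11.8 and 17.9 at 3 µM. Every culture was higher than its own DMSO library at each dose, and culture 1 stayed below the others throughout. The fitted log2 difference at 3 µM was 1.71 ± 0.96 (SE, n = 3; edgeR adjusted p = 0.15, and 0.00103 with the culture as a block).

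**Figure D3:**
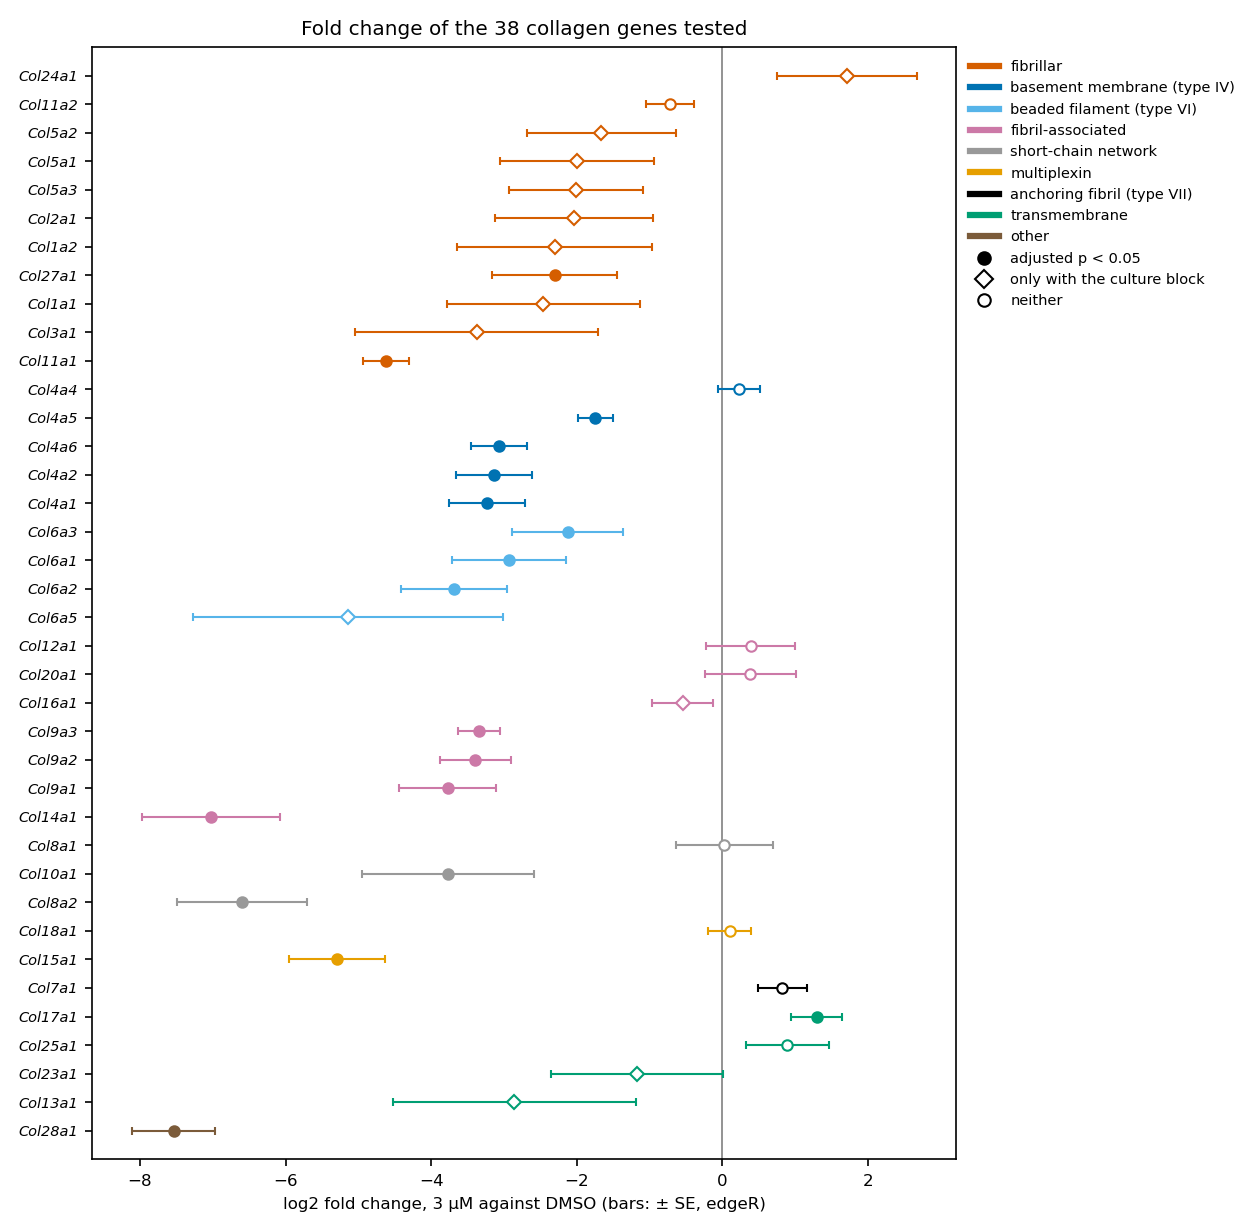
Log2 fold change at 3 µM against DMSO (x axis, with bars as standard errors derived from the F statistic of the fit without the block) for the 38 collagen genes tested, coloured by class. Filled circles passed the test without the block (1 higher, 17 lower), open diamonds only with the culture as a block, and open circles in neither fit; the fibrillar genes are mostly open diamonds with wide bars.

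Type VI collagen forms beaded filaments around cells, and its main form combines the chains of Col6a1, Col6a2 and Col6a3. All 3 of these genes fell at 3 µM. Among the 4 type VI genes tested, 3 were called lower and 0 higher, where 27.7% of all genes fell and 29.9% rose. With the block 4 were lower, where 34.8% of all genes were. Col6a1 stood at 530.2, 1418 and 1125 CPM in DMSO, 347, 1009 and 1102 at 1 µM, 148, 386 and 642 at 1.5 µM and 35.6, 118 and 249.97 at 3 µM. The 3 µM libraries were all below the DMSO libraries. On the log2 scale the difference was -2.93 ± 0.79 (SE, n = 3; edgeR adjusted p = 0.00931), 7.61-fold lower.

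Col6a2 stood at 529, 1331 and 1008 CPM in DMSO, 319.7, 823 and 893 at 1 µM, 119, 296 and 449 at 1.5 µM and 21.9, 81.95 and 119 at 3 µM, a log2 fold change of -3.68 ± 0.73 (SE, n = 3; edgeR adjusted p = 0.00173). Col6a3 stood at 455, 1322 and 1442 CPM in DMSO, 404, 1133 and 1665 at 1 µM, 191, 474 and 1149 at 1.5 µM and 108, 277 and 352 at 3 µM, a log2 fold change of -2.13 ± 0.76 (SE, n = 3; edgeR adjusted p = 0.0346). The Col6a3 call was lost in 4 fits that left out 1 library (highest adjusted p = 0.103). It was also lost without culture 2 (0.235), without culture 3 (0.0536) and with no filter on low counts (0.0673). The calls of Col6a1 (0.159) and Col6a2 (0.0638) were lost without culture 2. With the block all 3 stood (2e-05, 3.63e-06 and 2.29e-05).

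The other type VI chains were rare. Within the DMSO group Col6a5 came almost wholly from culture 3, with 0.0444, 0.507 and 7.48 CPM in DMSO and 3 counts in all at 3 µM against 145 in DMSO, a ratio of 40.7 with a 95% counting interval of 13.6 to 199.4, which covers counting error only. Its log2 fold change was -5.14 ± 2.13 (SE, n = 3; edgeR adjusted p = 0.0604, and 0.00169 with the culture as a block), and culture 1 was not lower. Col6a4 stood at 0.0444, 0.101 and 0.161 CPM in DMSO and 0.548, 0.385 and 0.965 at 3 µM and was not tested.

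Fibril-associated collagens, which decorate the surface of fibres, fell in 4 of 7 tested cases at 3 µM and rose in 0, where 27.7% of all genes fell. The 4 that fell did so steeply, and the other 3 were not called without the block. Col14a1, which binds to type I fibres, stood at 309, 218 and 236 CPM in DMSO, 123, 172 and 207 at 1 µM, 38.3, 32.7 and 122 at 1.5 µM and 0.157, 0.577 and 5.03 at 3 µM. Culture 3 kept the most at 1.5 and 3 µM. The log2 fold change was -7.03 ± 0.95 (SE, n = 3; edgeR adjusted p = 0.000171), 130.4-fold lower. The size is uncertain, since the 3 µM libraries held 2, 9 and 73 counts of it. The log2 ratios to DMSO in cultures 1, 2 and 3 were -10.23, -8.33 and -5.52.

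The 3 chains of type IX collagen, best known from cartilage, fell together. Col9a3 stood at 316, 191 and 144 CPM in DMSO, 222, 181 and 163 at 1 µM, 116, 104 and 133 at 1.5 µM and 23.9, 23.02 and 17.2 at 3 µM. No 3 µM library came near the lowest library of another group. Its fitted log2 difference was -0.88 ± 0.26 (SE, n = 3; edgeR adjusted p = 0.03) at 1.5 µM and -3.34 ± 0.28 (SE, n = 3; edgeR adjusted p = 1.12e-05) at 3 µM. The call at 1.5 µM was lost in 4 of the 12 fits that left out 1 library (highest adjusted p = 0.102), and the value was -0.507 without DMSO culture 1 (adjusted p = 0.0791). Col9a1 (-3.78, adjusted p = 0.000921) and Col9a2 (-3.39, adjusted p = 0.000246) fell by similar amounts at 3 µM. Col9a3 shares 234 exon bases with Tcfl5 on the opposite strand, so its counts from these bases could be affected if strand was not used.

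Col12a1, found on fibres under tension, differed in direction between cultures. It stood at 495, 331 and 279 CPM in DMSO, 383, 466 and 447 at 1 µM, 221, 305 and 942 at 1.5 µM and 231, 267 and 947 at 3 µM. At the higher doses culture 1 was below and culture 3 far above its own DMSO library. The fitted log2 difference at 3 µM was 0.39 ± 0.62 (SE, n = 3; edgeR adjusted p = 0.609), and it was -0.59 without 3 µM culture 3 and -0.74 without culture 3 in every group (adjusted p = 0.0354). Col16a1, a collagen that lies near basement membranes, stood at 232, 267 and 342 CPM in DMSO, 198, 298 and 375 at 1 µM, 189, 253 and 451 at 1.5 µM and 122, 137 and 317 at 3 µM, a difference of -0.55 ± 0.42 (SE, n = 3; edgeR adjusted p = 0.287, and 0.0076 with the culture as a block). Col20a1, at most 8.00 CPM, differed by 0.38 ± 0.62 (SE, n = 3; edgeR adjusted p = 0.612), and by -0.96 without 3 µM culture 3.

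Of the short-chain network collagens, which form hexagonal lattices, 2 of 3 fell at 3 µM, where 27.7% of all genes did. Col8a2 stood at 38.3, 106 and 86.7 CPM in DMSO, 30.5, 133 and 79.6 at 1 µM, 9.48, 38.1 and 9.09 at 1.5 µM and 0.627, 1.09 and 0.621 at 3 µM. The 3 µM libraries held 8, 17 and 9 counts of it. On the log2 scale the difference was -6.60 ± 0.89 (SE, n = 3; edgeR adjusted p = 0.000174), 96.8-fold lower. Its partner chain Col8a1 stood at 9.37, 9.94 and 27.5 CPM in DMSO, 9.94, 22.2 and 47.3 at 1 µM, 11.7, 16.9 and 50.5 at 1.5 µM and 15.6, 16.2 and 16.00 at 3 µM, a difference of 0.02 ± 0.67 (SE, n = 3; edgeR adjusted p = 0.978) that changed sign in several fits. Col10a1, a marker of hypertrophic cartilage, was below 8 CPM throughout and fell by 3.77 on the log2 scale (edgeR adjusted p = 0.0196), a call lost in 3 fits that left out 1 library. The call was also lost when culture 1 (0.154) or culture 2 (0.184) was left out of every group. These fits had no block, and with the block on all libraries Col10a1 had an edgeR adjusted p of 0.00474. Its 3 µM libraries held 1, 1 and 4 counts, and within culture 3 the log2 ratio to DMSO was only -0.88.

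Col28a1, a von Willebrand domain collagen known from peripheral nerve, was low. It was below DMSO in each culture from the first dose, where edgeR called it only with the culture as a block. It stood at 8.66, 10.9 and 10.7 CPM in DMSO, 1.78, 4.38 and 2.78 at 1 µM, 1.21, 0.9598 and 0.926 at 1.5 µM and 0.0783, 0 and 0.06896 at 3 µM. Each 1 µM library was below all DMSO libraries. The log2 fold change was -1.75 ± 0.37 (SE, n = 3; edgeR adjusted p = 0.109, and 0.0157 with the culture as a block) at 1 µM and -3.28 ± 0.40 (SE, n = 3; edgeR adjusted p = 0.000578) at 1.5 µM. At 3 µM there were 2 counts in all against 500 in DMSO, a ratio of 210.3 with a 95% counting interval of 57.9 to 1741 that likewise covers counting error only.

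The step from 1 to 1.5 µM carried calls for 2 collagen genes, both lower (Col11a1 and Col28a1; 0 to 2 when 1 library was left out), where 0.992% of all genes were called lower and 4.43% higher. The block gave 17 lower and 0 higher, where 10.5% and 11.3% of all genes were. From 1.5 to 3 µM, 10 were lower and 0 higher, against 12.7% and 17% of all genes, and the block gave 22 and 2, against 22% and 24.7%. The slope on dose called 18 lower and 2 higher (Col17a1 and Col7a1), against 28% and 30.2% of all genes. With the block it called 29 lower and 2 higher, here Col17a1 and Col24a1, against 32.3% and 32.2%. These comparisons share libraries with those against DMSO.

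After correction for exon length, the make-up of collagen mRNA shifted toward transmembrane collagen. CPM values were divided by the exon length of each gene in kilobases and expressed as a share of the collagen total. This length covers all annotated exons of a gene and can exceed that of a single transcript. Transmembrane genes, chiefly Col17a1, took 7.85, 2.07 and 1.24% of this total in DMSO, 9.99, 3.55 and 1.51% at 1 µM, 17.5, 9.29 and 3.76% at 1.5 µM and 45.4, 25.1 and 17.97% at 3 µM. The share was highest in culture 1 and lowest in culture 3 at every dose, and it was larger at 3 µM than at any lower dose in each culture.

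Fibrillar genes took 20.98, 36.5 and 63.97% in DMSO and 8.08, 25.7 and 43.7% at 3 µM, lower in each culture but with the order of the cultures kept. Type IV genes took 23.04, 21.2 and 10.8% in DMSO and 9.13, 12.8 and 6.601% at 3 µM. Type VI genes took 19.3, 23.7 and 13.99% in DMSO and 6.76, 13.5 and 10.2% at 3 µM. These shares are linked, because a loss in one class raises the others.

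**Figure D4:**
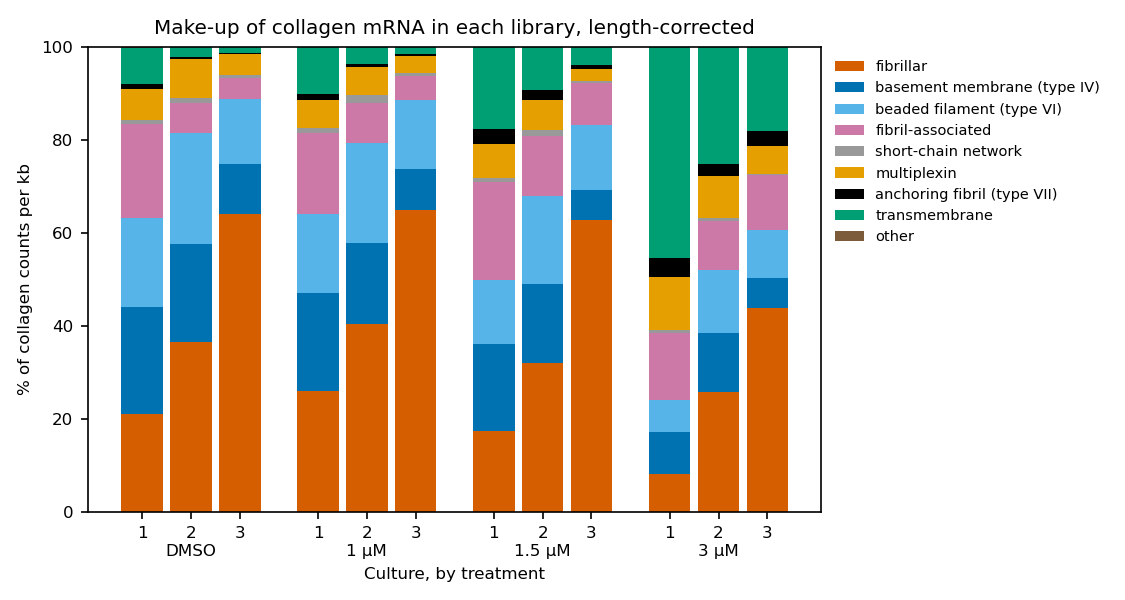
Share of the length-corrected collagen signal (CPM per kilobase of exon, in %) taken by each class in each library, as stacked bars from 0 to 100, for cultures 1 to 3 in each treatment. The transmembrane share at the top reaches 45.4, 25.1 and 18.0% at 3 µM in cultures 1, 2 and 3, and the fibrillar share at the base is largest in culture 3 at every dose.

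Ratios of a pair of collagens within a library do not depend on how libraries are scaled, and 6 were tested by permuting the 4 doses within each culture (exact, two-sided, 13824 rearrangements, Benjamini-Hochberg adjusted over the 6). Per kilobase, Col17a1 was 1.28, 0.176 and 0.0472 times Col1a1 in DMSO and 19.1, 2.78 and 1.17 times at 3 µM. In cultures 2 and 3 it was below Col1a1 in DMSO and above it at 3 µM, and in culture 1 it was above it in both. The log2 ratio rose by 1.48 per µM (adjusted p = 0.000434 in the exact permutation test). Against Col4a1 it was 0.715, 0.147 and 0.158 in DMSO and 13.1, 3.66 and 5.92 at 3 µM, and the log2 ratio rose by 1.63 per µM (adjusted p = 0.000434, exact permutation).

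For chains of one protein, the ratio varied little in type I and in the main type IV pair. Per kilobase, Col1a1 was between 1.54 and 2.05 times Col1a2 over the 12 libraries, with a slope of -0.034 per µM (adjusted p = 0.234, exact permutation). In counts without length correction it was between 0.815 and 1.08 times. The level of the ratio therefore depends on the exon lengths used, 6563 bases for Col1a1 and 12426 for Col1a2. Col4a1 was between 1.48 and 1.73 times Col4a2, while each of them varied over a far wider range. Its slope was -0.026 per µM (adjusted p = 0.0441, exact permutation), a small trend that no longer passed when any of 8 single libraries was left out (up to 0.143).

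Col4a5 and Col4a6 moved apart instead. Per kilobase, Col4a5 was 1.63, 1.73 and 1.46 times Col4a6 in DMSO and 4.40, 5.44 and 3.39 times at 3 µM, with no overlap between these groups. The slope was 0.48 per µM (adjusted p = 0.000434, exact permutation), and it lay between 0.418 and 0.522 when any library or culture was left out. The type IV to type I ratio, Col4a1 to Col1a1, differed between cultures, from 0.141 to 1.79 per kilobase, and its slope on dose of -0.14 did not pass (adjusted p = 0.202, exact permutation).

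**Figure D5:**
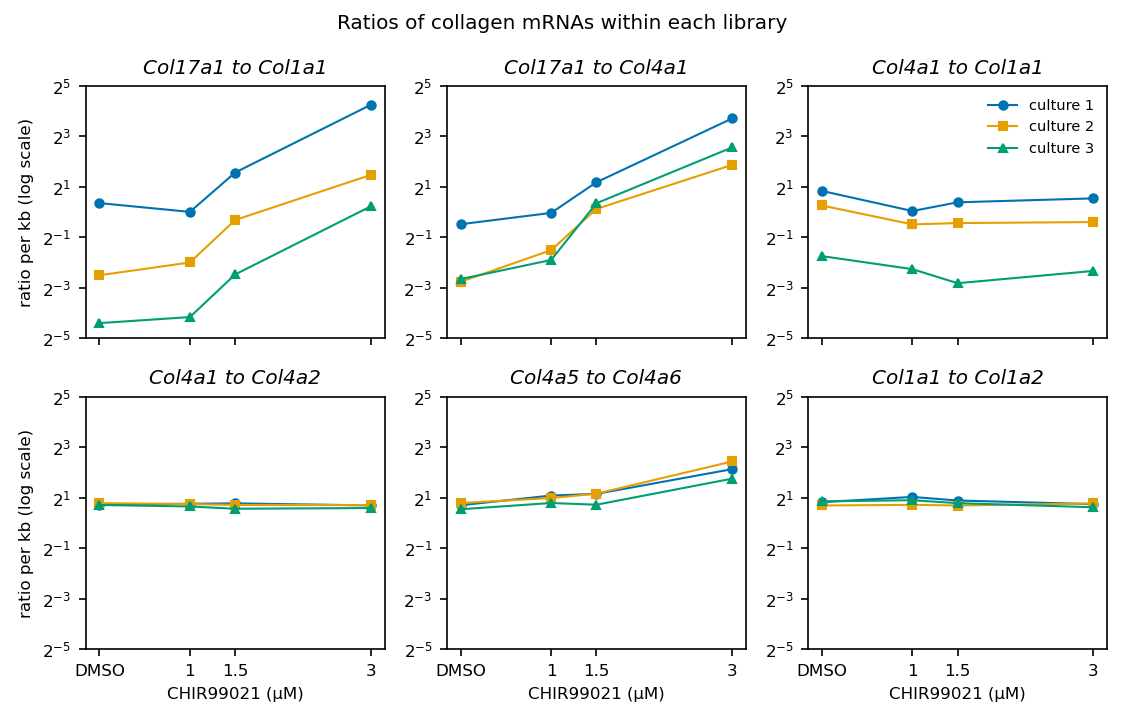
Ratio of 2 collagen mRNAs per kilobase of exon within each library (log scale, the same range in each panel) against the dose of CHIR99021, with 1 line per culture. Col17a1 gains on Col1a1 and Col4a1 in all 3 cultures, Col4a5 gains on Col4a6 (1.46 to 1.73 in DMSO, 3.39 to 5.44 at 3 µM), and the Col4a1 to Col4a2 and Col1a1 to Col1a2 ratios stay in a narrow band.

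Levels also differed between the 3 cultures. Across treatments, 25 of 38 collagen genes differed by culture (edgeR F test of the culture term), where 28.8% of all genes did. They included 9 of 11 fibrillar genes, 4 of 4 type VI genes, 3 of 3 short-chain genes, 2 of 2 multiplexins, 2 of 5 type IV genes (Col4a1 and Col4a2), 3 of 7 fibril-associated and 2 of 4 transmembrane genes. Col17a1, Col7a1, Col11a1, Col14a1, Col4a5 and Col4a6 did not pass this test (adjusted p = 0.237, 0.474, 0.245, 0.17, 0.616 and 0.223). In a test of whether the slope on dose differed by culture, added after the data were seen, 0 of 38 collagen genes and 0 of all genes passed after adjustment in edgeR, and 6 collagen genes had an unadjusted p below 0.05. Among these 6 were Col17a1, with slopes of 0.21, 0.42 and 0.80 log2 units per µM in cultures 1, 2 and 3, and Col12a1, with -0.38, -0.16 and 0.61.

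Enzymes and chaperones that make collagen in the endoplasmic reticulum moved in both directions. Of 18 tested at 3 µM, 4 fell and 1 rose, fewer than the 27.7% and 29.9% of all genes, and with the block 8 fell and 4 rose, against 34.8% and 34.1%. Their median log2 fold change was -0.29. Serpinh1, the chaperone of procollagen, stood at 481, 735 and 711 CPM in DMSO and 96.6, 164 and 246 at 3 µM, a log2 fold change of -1.93 ± 0.38 (SE, n = 3; edgeR adjusted p = 0.00165). Colgalt2, a collagen galactosyltransferase, fell from 11.7, 10.7 and 21.2 CPM to 0.0783, 0.128 and 0.138 CPM (edgeR adjusted p = 0.00077). Mia3, needed to export procollagen, fell by 0.56 on the log2 scale (0.00257), and the prolyl 3-hydroxylase Leprel1 (P3h2) rose by 0.81 (0.0107).

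Of 14 tested genes for processing and cross-linking outside the cell, 5 fell and 0 rose, a share near the 27.7% of all genes that fell, and with the block 10 fell and 1 rose, against 34.8% and 34.1%. Their median was -1.07. Sparc, a collagen-binding protein, stood at 1479, 3217 and 3738 CPM in DMSO and 267, 457 and 736 at 3 µM, a log2 fold change of -2.53 ± 0.62 (SE, n = 3; edgeR adjusted p = 0.00577). The procollagen proteinases Bmp1 (-0.94, adjusted p = 0.028) and Adamts3 (-1.11, 0.0203) and the enhancer Pcolce (-3.01, 0.0322) fell too.

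Partners of type IV collagen in the basement membrane fell in 8 of 11 cases and rose in 0, where 27.7% of all genes fell, and with the block 10 fell, where 34.8% did. Their median log2 fold change was -1.67. Lamc1, the γ chain of most laminins, stood at 357, 623 and 434 CPM in DMSO and 119, 136 and 219 at 3 µM, a log2 fold change of -1.58 ± 0.29 (SE, n = 3; edgeR adjusted p = 0.00106). The proteoglycan perlecan (Hspg2) fell by 1.92 (0.0071), Lama4 by 1.67 (0.00641) and Lamb2 by 0.48 (0.00183) on the log2 scale.

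Hemidesmosome partners of Col17a1 were divided, with 4 of 8 higher, 2 lower and 2 not called, beside 29.9% of all genes higher and 27.7% lower. With the block 4 were higher and 3 lower, beside 34.1% and 34.8%, and their median log2 fold change was 0.57. Lama3, a laminin chain of epithelial basement membranes, stood at 119.6, 88.4 and 108 CPM in DMSO and 249.999, 226 and 502 at 3 µM, a log2 fold change of 1.63 ± 0.28 (SE, n = 3; edgeR adjusted p = 0.000681). Itgb4, the integrin chain of the junction, rose as well (1.19, adjusted p = 0.00215). Cd151, a tetraspanin of the junction, fell by 0.86 on the log2 scale (0.00607).

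Among 8 collagen receptors, 1 rose and 2 fell, no more than the 29.9% and 27.7% of all genes, and with the block 1 rose and 4 fell, against 34.1% and 34.8%. Their median was -1.01. Itga2, an integrin chain of epithelial and other cells that binds collagen, stood at 11.5, 7.103 and 7.64 CPM in DMSO and 25.5, 22.2 and 56.1 at 3 µM, a log2 fold change of 1.98 ± 0.33 (SE, n = 3; edgeR adjusted p = 0.000641). Itga11, the collagen-binding integrin chain of fibroblasts, fell by 3.17 (0.0097) and Lair1, a receptor of leukocytes, by 5.02 (0.0017) on the log2 scale. Itga1 did not pass without the block (-1.59, 0.08; 0.00479 with it).

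Markers of cell types other than epithelium were present in these organoids, and most that were called were lower at 3 µM. In such bulk samples, fewer cells of a type and less RNA per cell cannot be told apart. Summed over 12 fibroblast markers, the level was 2844 to 6892 CPM in DMSO and 158 to 3388 at 3 µM. Most of each DMSO sum was Postn, at 2468, 2394 and 3948 CPM, which stood at 54.4, 177 and 797 CPM at 3 µM. Among the 12 markers, 3 were called lower and 0 higher, and 10 lower and 1 higher (Twist2) with the block. Of all genes, 27.7% were lower without the block and 34.8% with it, so that without it the fibroblast list held no larger share of calls. Dcn, a proteoglycan of fibroblasts, stood at 38.7, 219 and 624 CPM in DMSO and 13.9, 115 and 1071 at 3 µM and was not called. Dcn and Twist2 were the only markers of this list with a higher mean at 3 µM than in DMSO. The means of Fap went from 8.79 to 1.07 CPM and those of Pdgfrb from 201 to 48.2 CPM.

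The sum of 6 endothelial markers was 257 to 529 CPM in DMSO and 29.1 to 89.99 at 3 µM (6 of 6 lower), of 5 pericyte markers 248 to 394 and 38.7 to 79.4 (4 of 5), of 5 macrophage markers 40.7 to 331 and 13.01 to 57.99 (4 of 5), and of 4 adipocyte markers 1018 to 2511 and 1.86 to 44.6 (4 of 4), each count beside 27.7% of all genes lower. No marker on these lists was at 0 in all 3 libraries of a group. The fibroblast sum was highest in culture 3 in each group, as the type I and III collagens were. The part of these cells in the collagen values was not tested.

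Epithelial markers moved in both directions. Of 8 myoepithelial markers, the basal genes Krt5, Krt14 and Trp63 rose and the contractile genes Acta2, Myh11, Cnn1 and Mylk and the oxytocin receptor Oxtr fell. That is 3 higher and 5 lower at 3 µM, beside 29.9% and 27.7% of all genes. The block gave the same counts, beside 34.1% and 34.8%. Krt14 stood at 1542, 794 and 934 CPM in DMSO and 17796, 20330.1 and 8746 at 3 µM, and Acta2 at 258, 292 and 428 and 19.3, 16.7 and 5.86. Of 6 luminal markers, 3 fell (Krt8, Krt18 and Krt19) and 0 rose, and with the block 3 fell and 2 rose, where 27.7% and 29.9% of all genes, and 34.8% and 34.1% with the block, were called. Their part in the values of Col17a1 and of the type IV genes was not tested.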

How the data were processed

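Per the labels' protocols, libraries of polyA RNA were prepared with a strand-preserving Illumina kit. The submitters' processing notes list TopHat2 2.1, Bowtie 1.1.0, HTSeq and DESeq2 and the build GRCm38 (mm10), with no role or order. Whether counting used strand is not given in the sources used here. The values used are raw read counts per gene as deposited; the deposited log2 table holds the log2 of 1 plus the same counts scaled to a common library total and was not used in any test. Members and lists were chosen with earlier results of these data known.

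Counts were scaled with TMM, filtered with filterByExpr and tested in edgeR 4.0.16 (R 4.3.3; quasi-likelihood, robust, group means over all 12 libraries), two-sided. Each SE given with an edgeR value is the absolute log2 fold change divided by the square root of the F statistic of its test. The replicate number is the animal per the series' design, and libraries that share a number deviated together (correlation of deviations 0.197 to 0.864, median 0.563, over 18 pairs, against a median of -0.229 over 36 other pairs), so the fit with culture as a block is given wherever it changes a call. Counting noise did not make any pair of libraries of a group look alike (chi-square per degree of freedom at least 12.8). Exon lengths, coordinates and overlaps come from GENCODE M21 (GRCm38), in which 24902 of 25210 identifiers were found. Alternatives were DESeq2 1.42.0, scaling by library size alone, no filter, only the groups compared, and leaving out each library or culture. For the dose comparisons and the slope, all of these were fitted without the block. The scripts were tested on simulated counts.

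Values in every library are given for Col17a1, the type IV genes, Col1a1, Col1a2, Col3a1, the 2 fibrillar genes with the lowest p for the slope and, in other classes, the 2 most counted; Col6a2, Col9a3, Col14a1 and Col24a1 were added after their values were seen. Of each companion list up to 4 genes of lowest p at 3 µM are named; 1 of these is not reported here.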

Additional observations from a re-analysis of the deposited data

How the results depend on the processing

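With the culture as a block, the pairing given by the labels, the number of collagen genes called was 2 at 1 µM, 27 at 1.5 µM, 30 at 3 µM, 17 from 1 to 1.5 µM, 24 from 1.5 to 3 µM and 31 for the slope, against 0, 7, 18, 2, 10 and 20 without it. DESeq2 called 1 at 1 µM and 7 from 1 to 1.5 µM, and for the latter no filter on low counts gave 1 and a fit of only the 2 groups 1. At 3 µM DESeq2, without the block, also called Col3a1 (adjusted p = 0.0301), Col5a3 (0.0458) and Col6a5 (0.0144) lower and Col7a1 (0.0356) higher. The fits that left out 1 library or 1 culture had no block, except for the culture term. They gave 1 to 11 calls at 1.5 µM, 12 to 23 at 3 µM and 0 to 3 from 1 to 1.5 µM. They also gave 3 to 14 from 1.5 to 3 µM, 14 to 27 for the slope and 22 to 29 for the culture term. Scaling by library size alone moved the median of all genes at 3 µM from -0.03 to -0.23 and their calls from 4574 higher and 4239 lower to 3395 and 5401, while the collagen median went from -2.31 to -2.47 with 1 higher and 18 lower. The Col4a1 to Col4a2 slope was -0.026 with no replicate block (adjusted p = 0.244) and -0.034 to -0.019 with a library or culture left out, where most fits no longer passed; the other 5 ratio slopes kept their sign and their side of the threshold under each alternative run.

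Of the uncalled differences at 3 µM, 5 changed sign. Col18a1 went from 0.103 to -0.076 with library size alone, and to -0.125 without DMSO culture 1, -0.209 without 3 µM culture 3 and -0.155 without culture 3 (at most 0.418, without culture 2). Col8a1 went from 0.024 to -0.178 with library size alone, -0.017 with no filter and -0.013 in a fit of only the 2 groups, and to -0.243 without DMSO culture 1, -0.222 without DMSO culture 2, -0.228 without culture 1 and -0.222 without culture 2 (at most 0.711, without culture 3). Without 3 µM culture 3, and without culture 3 in every group, Col20a1 was -0.962 and -0.867 (at most 0.89, without culture 2), Col25a1 -0.459 and -0.377 (at most 1.336, without culture 1) and Col12a1 -0.59 and -0.741, the latter called (adjusted p = 0.0354; at most 0.997, without culture 1). The cause of these shifts was not tested. At 3 µM, Col28a1 and Col6a5 had 2 and 3 counts over the group, at or under the floor of 3 counts.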
